A study of Drosophila melanogaster with 18 samples.

Results

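The 9 genes described here serve the actin-based hairs and bristles of the fly wing: ovo, sha, f, sn, jv, mwh, in, fy and frtz. They were taken by name, as known genes of hair and bristle outgrowth and of planar polarity, by a rule that uses no measured value, though with earlier results of these data known. All 9 were among the 13731 genes with values in the deposited tables, and all 9 passed the filter on low counts that left 9672 genes for testing. The smallest count of any of them in any library was 156, for jv.

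RNA with poly(A) tails was sequenced from whole dissected pupal wings of Drosophila melanogaster, at least 40 wings to a library, in 6 groups of 3 libraries. Flies of every group carried rn-Gal4, a driver that follows the gene rotund in the developing wing, and were kept at 25ºC. The control had the driver alone (rn-Gal4), the group labelled E93RNAi added an RNAi transgene against E93 (rn-Gal4; UAS-E93RNAi), and the group labelled E93RNAi+brRNAi added RNAi transgenes against both E93 and broad (rn-Gal4; UAS-brRNAi; UAS-E93RNAi). Each genotype was sampled at 24 h and at 44 h after puparium formation, and the submitters' stated question is how far the changes under E93 depletion pass through the repression of br. The RNA comes from all cells of the dissected wing, while the driver acts in only some of them, and libraries with only the br transgene are not part of the data used here. Whether a group's 3 libraries stem from different crosses is not in the labels, so the p-values speak only for the spread among them, and that spread may be technical.

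Each wing cell grows 1 distally pointing hair, which starts as a bundle of actin filaments at the distal side of the cell, and bristles of the wing margin are larger extensions built on the same kind of bundles. Shavenbaby, a transcription factor made from the ovo gene, switches on actin and apical matrix genes in epidermal cells that make such extensions. The planar polarity effectors Inturned, Fuzzy and Fritz gather at the proximal side of the cell and act through Multiple wing hairs, which keeps hair growth to a single site. In normal pupal wings at this temperature the hairs emerge after the earlier and before the later of the sampled times.

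The libraries held 17627937 to 22940404 counts each, which makes 1 count worth 0.0436 to 0.0567 CPM before adjustment by TMM. CPM, the count scaled to library size and adjusted by TMM, is the unit of all levels unless another is named. Of 10 wing epithelium markers, 9 were matched and all 9 were above 1 CPM on average in every group. The transcript of E93, Eip93F, averaged 2077 CPM in control wings against 2066 CPM in E93RNAi at 24 h, with 1285 against 1156 CPM at 44 h, so it did not separate these groups past the threshold at either time (adjusted p = 0.935 and 0.0522), and the groups are named by their labels throughout. Its mean in E93RNAi+brRNAi was 2369 CPM at the earlier time and 867 CPM at the later. At 24 h the feature taken as br averaged 14.8 CPM in control, 95.1 CPM in E93RNAi and 17.96 CPM in E93RNAi+brRNAi, and at 44 h these means were 1.70, 50.2 and 7.63 CPM. Dcr-2, which encodes the Dicer of the RNAi pathway, was at 5549 CPM in E93RNAi against 237 CPM in control at 24 h and 2202 against 63.0 CPM at 44 h, but at 141 and 52.4 CPM in E93RNAi+brRNAi. This difference between the flies is not in the labels, and its part in any contrast with E93RNAi cannot be told apart from that of the labelled transgene. Replicate 3 of E93RNAi at 24 h and replicate 3 of E93RNAi+brRNAi at 44 h stood apart from the other libraries of their groups, with a chi-square per degree of freedom between 17.7 and 25.6 across genes against 2.78 to 10.4 for all other pairs.

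In control wings the hair genes rose steeply between 24 h and 44 h, the polarity effectors in, fy and frtz rose less, and ovo did not pass the test. Of the 9 genes, 8 rose and 0 fell, where 37.1% of all tested genes rose and 38.1% fell. The median log2 change of the 9 was 1.98, beside -0.01 over all 9672 genes. The rises of sha, f, mwh and jv ranked 108, 122, 170 and 264 among the tested genes. With library totals alone as scaling, the split of the 9 became 7 higher and 1 lower (ovo), and the share of higher calls among all called genes went from 49.3% to 37.4%.

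**Figure D1:**
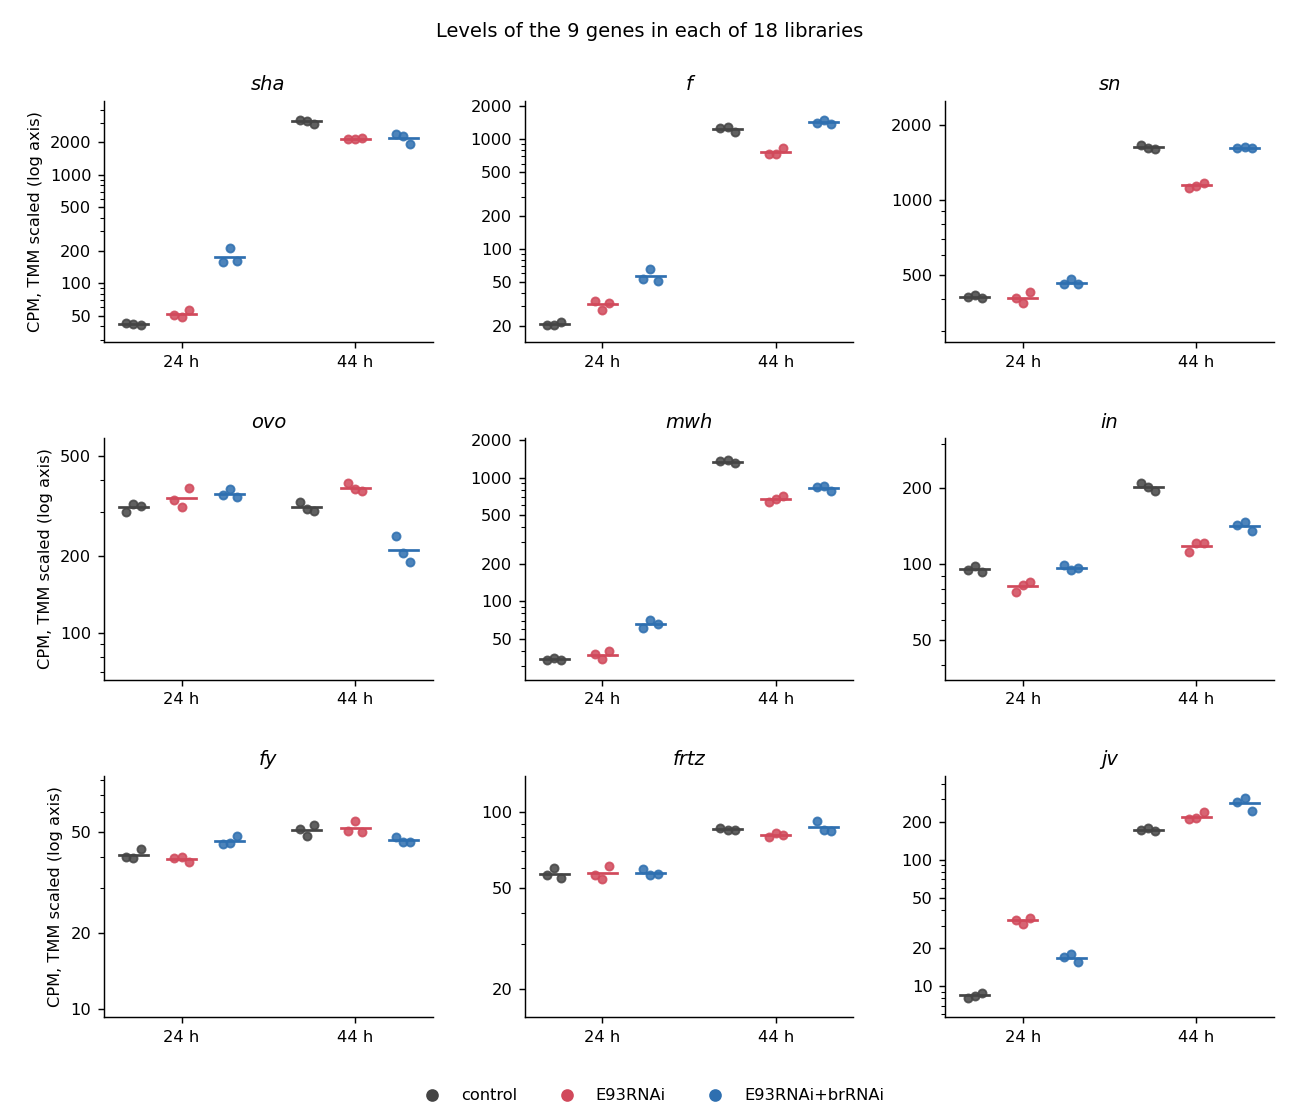
Levels of the 9 genes in each of the 18 libraries, in TMM-scaled CPM on a log axis, with points for libraries and bars for group means (n = 3). The panels of sha, f, mwh and jv show the widest gaps between 24 h and 44 h, and the ovo panel shows 44 h E93RNAi+brRNAi libraries at 189 to 242 CPM, below all others.

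The regulator ovo encodes zinc finger factors that include Shavenbaby, and its counts cannot be divided between shavenbaby and the germline products of its 5 annotated transcripts. Control wings held 299, 321 and 317 CPM of ovo at 24 h, then 328, 307 and 304 CPM at 44 h, and the times overlapped (log2 fold change 0.00 ± 0.07 SE, 95% interval -0.15 to 0.15). In E93RNAi the 24 h libraries held 336, 315 and 373 CPM, the 44 h libraries 391, 369 and 362 CPM. E93RNAi+brRNAi wings held 350, 368 and 343 CPM at 24 h but 242, 206 and 189 CPM at 44 h, the lowest of the 18 libraries. At 44 h the 3 genotypes thus stood in separate ranges, with E93RNAi above control (log2 fold change 0.26 ± 0.07, adjusted p = 0.00743) and E93RNAi+brRNAi below it (-0.56 ± 0.07, adjusted p = 2.51e-06). Between 24 h and 44 h ovo fell by 0.74 on the log2 scale in E93RNAi+brRNAi (adjusted p = 1.23e-08). Without the outlying replicate 3 of that group at 44 h the fall was 0.65 in size (log2 fold change -0.65), and the difference from control was -0.48. In E93RNAi the change over time was 0.13 (adjusted p = 0.108), which passed the threshold without replicate 3 at 24 h (0.20).

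Shavenoid, the product of sha, is needed for the actin prehair to grow out, and sha showed the widest range of the 9 genes. Control libraries held 42.6, 41.7 and 41.0 CPM at 24 h, then 3233, 3144 and 2956 CPM at 44 h. The later libraries were all far above the earlier ones, 74.5-fold on the means (log2 fold change 6.22 ± 0.12, adjusted p = 8.40e-21). E93RNAi libraries held 51.2, 48.9 and 56.2 CPM of sha at 24 h, those with both transgenes 156, 209 and 159 CPM. Each of the latter was thus above every other 24 h library, 4.18-fold over the control mean (log2 fold change 2.06 ± 0.10, adjusted p = 2.70e-12). The difference between E93RNAi and control at 24 h was smaller (0.32 ± 0.10, adjusted p = 0.0146) and missed the threshold without replicate 3 of E93RNAi (0.26). At 44 h both RNAi groups lay below control: E93RNAi libraries held 2133, 2133 and 2198 CPM, E93RNAi+brRNAi libraries 2407, 2302 and 1912 CPM. The RNAi groups overlapped each other at that time (log2 fold change 0.03 ± 0.09, 95% interval -0.15 to 0.22), and each was lower than control, by -0.53 ± 0.09 (adjusted p = 6.58e-05) and -0.50 ± 0.09 (adjusted p = 0.00013) on the log2 scale.

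Forked, encoded by f, cross-links actin filaments into the bundles of growing bristles. From 20.3, 20.3 and 21.6 CPM in the 24 h control libraries, f went to 1277, 1283 and 1156 CPM in those of 44 h, a rise of 59.7-fold on the means (log2 fold change 5.90 ± 0.10). At 24 h f was higher in E93RNAi, with 33.4, 27.8 and 32.4 CPM (0.59 ± 0.10, adjusted p = 6.76e-05), and higher still in E93RNAi+brRNAi, with 53.6, 65.9 and 51.5 CPM (1.46 ± 0.09 against control, adjusted p = 2.01e-10). The order of the genotypes at 24 h was the same as for sha, with no overlap between them. At 44 h f was at 728, 729 and 837 CPM in E93RNAi, below every control library (-0.70 ± 0.08, adjusted p = 3.69e-07). In E93RNAi+brRNAi it was at 1404, 1499 and 1365 CPM, above all E93RNAi libraries (0.90 ± 0.08, adjusted p = 1.02e-08). Those libraries were also above all control libraries, but this difference (0.20 ± 0.08, adjusted p = 0.0453) missed the threshold with RLE factors, with library totals, in DESeq2, with the replicate number as a block (0.20) and without control replicate 1 (0.23) or 3 (0.16) or E93RNAi+brRNAi replicate 1 (0.22) or 2 (0.17).

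Fascin, the actin bundler encoded by sn, was the most abundant of the 9 at 24 h per length and changed little between genotypes at that time. The control libraries at 24 h held 407, 417 and 406 CPM, the E93RNAi libraries 403, 386 and 426 CPM, and they overlapped (log2 fold change -0.02, 95% interval -0.11 to 0.08). E93RNAi+brRNAi libraries, at 461, 480 and 459 CPM, lay above both (0.19 ± 0.04 against control, adjusted p = 0.00301). At 44 h the levels were 1663, 1607 and 1591 CPM in control, against 1608, 1624 and 1608 CPM in E93RNAi+brRNAi, which overlapped (-0.01 ± 0.04, 95% interval -0.10 to 0.09). The 3 E93RNAi libraries, at 1120, 1140 and 1172 CPM, lay below both groups (-0.50 ± 0.04 against control, adjusted p = 8.70e-09). The difference between E93RNAi+brRNAi and E93RNAi was 0.50 ± 0.04 (adjusted p = 1.07e-08).

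Javelin, encoded by jv, is needed for the shape of bristles, where it associates with the actin bundles. It was the lowest of the 9 in control at 24 h, with 8.05, 8.37 and 8.82 CPM, against 33.0, 31.2 and 34.8 CPM in E93RNAi and 16.9, 17.8 and 15.4 CPM in E93RNAi+brRNAi. The 3 genotypes did not overlap, and unlike sha and f the highest level was in E93RNAi, 3.92-fold over control (log2 fold change 1.97 ± 0.09, adjusted p = 1.85e-12). E93RNAi+brRNAi was lower than E93RNAi (-0.98 ± 0.08, adjusted p = 1.45e-08) and higher than control (0.99 ± 0.10, adjusted p = 1.80e-07). At 44 h the levels were 173, 178 and 169 CPM in control, 208, 213 and 236 CPM in E93RNAi and 287, 306 and 245 CPM in E93RNAi+brRNAi. The order at 44 h had thus changed, with E93RNAi+brRNAi highest (0.69 ± 0.07 against control, adjusted p = 4.33e-08) and E93RNAi between it and control (0.34 ± 0.07, adjusted p = 0.00037). The difference between the RNAi groups at 44 h was 0.35 ± 0.07, and 0.45 without replicate 3 of E93RNAi+brRNAi.

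The effector mwh, whose product resembles formins and limits each cell to 1 hair, was the furthest below control of the 9 genes in E93RNAi at 44 h. At 24 h the control libraries held 33.7, 35.2 and 33.4 CPM, the E93RNAi libraries 37.5, 34.1 and 39.9 CPM, and they overlapped (log2 fold change 0.13 ± 0.07, adjusted p = 0.154), a difference that passed the threshold without E93RNAi replicate 2 (0.18). E93RNAi+brRNAi libraries were above both groups, at 60.8, 71.2 and 65.3 CPM (0.95 ± 0.07 against control, adjusted p = 1.02e-09). At 44 h control libraries held 1360, 1381 and 1301 CPM, E93RNAi libraries 633, 673 and 705 CPM and E93RNAi+brRNAi libraries 834, 855 and 780 CPM. The groups were separate, with E93RNAi 2.01-fold under control (-1.01 ± 0.06, adjusted p = 2.67e-11) and E93RNAi+brRNAi between them (-0.71 ± 0.06 against control, adjusted p = 4.62e-09). Against E93RNAi, the level with both transgenes was higher by 0.30 ± 0.06 (adjusted p = 0.000398), or by 0.11 with library totals alone, which missed the threshold. In control mwh rose 39.6-fold between the times (5.31 ± 0.07).

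Of the 3 effectors upstream of mwh, in was lower in E93RNAi at both times. Its 24 h levels were 94.4, 98.5 and 93.2 CPM in control, 77.5, 82.9 and 85.2 CPM in E93RNAi and 99.3, 94.5 and 96.3 CPM in E93RNAi+brRNAi. E93RNAi was below both other groups (-0.22 ± 0.05 against control, adjusted p = 0.00189), which overlapped (0.02 ± 0.05, 95% interval -0.09 to 0.13). Its 44 h levels were 210, 202 and 194 CPM in control, 111, 121 and 121 CPM in E93RNAi and 143, 147 and 135 CPM in E93RNAi+brRNAi. This was the order of mwh, with a difference from control of -0.78 ± 0.05 in E93RNAi (adjusted p = 7.72e-11) and of -0.51 ± 0.05 in E93RNAi+brRNAi (adjusted p = 4.03e-08). Between the RNAi groups the difference was 0.27 ± 0.05 (adjusted p = 0.000206), or 0.08 with library totals alone, which missed the threshold.

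The other upstream effectors, fy and frtz, moved little. Over all 18 libraries fy was between 38.0 and 55.5 CPM, and rose from 24 h to 44 h in control (log2 fold change 0.33 ± 0.06) and in E93RNAi (0.42 ± 0.06) but did not pass in E93RNAi+brRNAi (0.01 ± 0.06, 95% interval -0.11 to 0.13). It was higher in E93RNAi+brRNAi than in control at 24 h (0.18 ± 0.06, adjusted p = 0.0168), a call lost without control replicate 1 (0.17) or 2 (0.16) or E93RNAi+brRNAi replicate 3 (0.15). The lower fy in E93RNAi+brRNAi than in E93RNAi at 44 h (-0.17 ± 0.06, adjusted p = 0.0162) was lost in a fit of those groups alone and without E93RNAi replicate 2 (-0.12) or E93RNAi+brRNAi replicate 2 (-0.14) or 3 (-0.15). For frtz the range was 54.4 to 61.4 CPM at 24 h and 79.8 to 92.6 CPM at 44 h, so that no library of one time overlapped the other. It rose in all 3 genotypes (0.59, 0.50 and 0.60), and no genotype difference of frtz passed the threshold at either time, the nearest being E93RNAi+brRNAi against E93RNAi at 44 h (0.11 ± 0.05, adjusted p = 0.101), which passed without replicate 3 of E93RNAi+brRNAi (0.14).

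**Figure D2:**
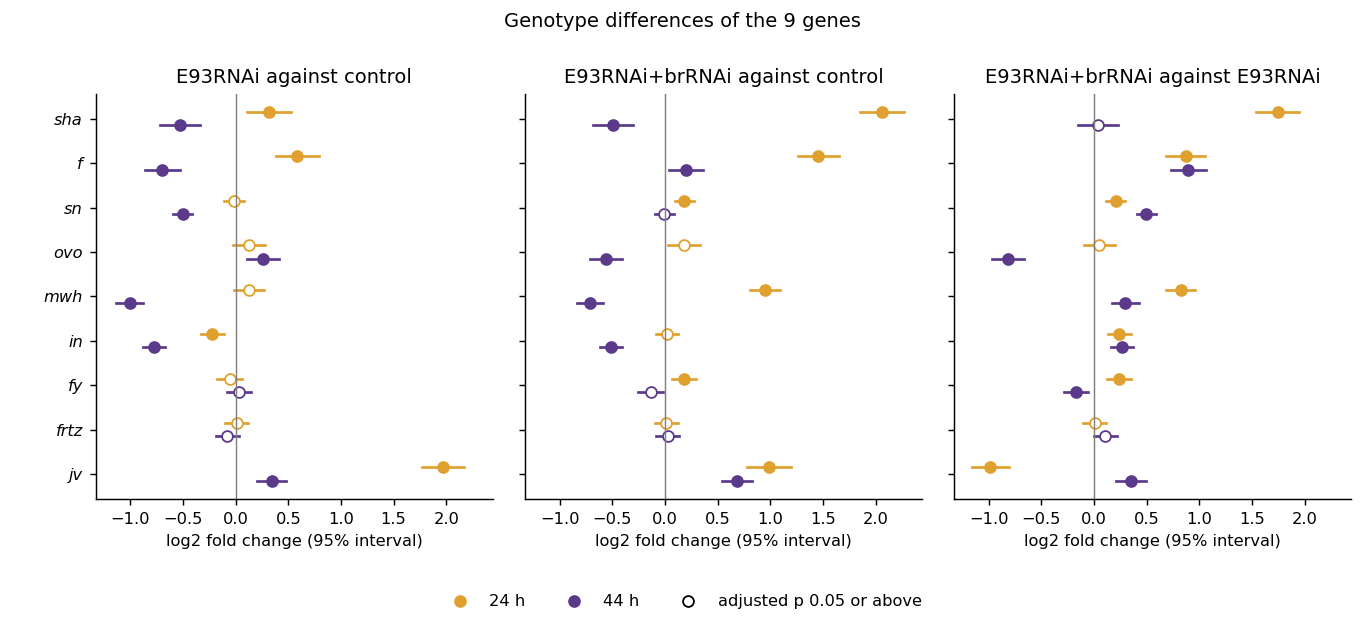
Genotype differences of the 9 genes as log2 fold changes with 95% intervals from the edgeR fit, at 24 h and 44 h, with open points where the adjusted p was 0.05 or above. The comparisons share libraries. In the panel of E93RNAi against control, sha and f lie right of 0 at 24 h (0.32 and 0.59) and left of it at 44 h (-0.53 and -0.70), while jv stays right of it at both times.

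Counted over the 9 genes, most calls of E93RNAi against control at 44 h were lower. At 24 h, 3 genes were higher (sha, f and jv) and 1 lower (in), where 21.7% of all tested genes were higher and 22.3% lower. Counts of this size among 9 genes are near the background, and the call of sha was lost without replicate 3 of E93RNAi (0.26). At 44 h, 2 were higher (ovo and jv) and 5 lower (sha, f, sn, mwh and in), where 20.6% of all tested genes were higher and 18.9% lower. The medians of the 9 were 0.13 and -0.50 on the log2 scale, beside 0.00 and 0.01 over all genes. With library totals alone, the share of higher calls among all genes called at 44 h went from 52.2% to 72.3%, and the 9 genes split into 3 higher and 5 lower.

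The change of the E93RNAi difference between the times was itself tested. It was below 0 for 6 of the 9 genes (jv, f, mwh, sha, in and sn, from -1.63 to -0.48) and above 0 for 0, where 18.02% of all tested genes were lower by this test and 19.9% higher. For sha and f the sign of the difference turned from positive to negative, while for jv a higher level remained at both times. Among all called genes the share of higher calls went from 52.4% to 67.1% with library totals alone, and the same 6 members stayed lower.

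E93RNAi+brRNAi against control at 24 h had 6 of the 9 genes higher (sha, f, sn, mwh, fy and jv) and 0 lower, where 14.7% of all tested genes were higher and 15.8% lower. The difference of sha ranked 163 and that of f 298 among 9672 genes. The call of ovo, at 0.18 ± 0.07 with adjusted p = 0.0698, passed in a fit of those groups alone (0.18). At 44 h 2 were higher (f and jv) and 4 lower (sha, ovo, mwh and in), where 22.99% were higher and 22.6% lower. With library totals alone the 44 h split was 1 higher and 5 lower among the 9, and 38.9% of all called genes were higher in place of 50.5%; fy, at -0.14 ± 0.06 with adjusted p = 0.0533, passed under that scaling (-0.21), with RLE factors (-0.14) and without control replicate 2 (-0.16).

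Set directly against E93RNAi, the wings with both transgenes had 6 of the 9 genes higher at 24 h (sha, f, sn, mwh, in and fy) and 1 lower (jv), where 20.2% of all tested genes were higher and 21.1% lower. At 44 h 5 were higher (f, sn, mwh, in and jv) and 2 lower (ovo and fy), where 24.9% were higher and 23.9% lower. With library totals alone the 44 h split of the 9 was 3 higher and 2 lower, and 25.6% of all called genes were higher in place of 51.0%. The change of this difference between the times was above 0 for 2 genes (sn and jv) and below 0 for 4 (sha, ovo, mwh and fy), where 17.5% of all tested genes were higher and 16.03% lower. With library totals alone that split was 1 and 4, since sn missed the threshold (0.14), and 27.7% of all called genes were higher in place of 52.2%. Since E93RNAi libraries enter both this comparison and the one with control, their directions are not independent.

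Between 24 h and 44 h, 8 of the 9 genes rose and 0 fell in E93RNAi, where 38.1% of all tested genes rose and 36.4% fell. In E93RNAi+brRNAi 7 rose and 1 fell (ovo), where 37.8% of all tested genes rose and 38.00% fell, and with library totals alone 7 rose and 2 fell, with 35.8% of all called genes higher in place of 49.9%. The log2 rise of sha was 6.22 in control, 5.37 in E93RNAi and 3.66 in E93RNAi+brRNAi. That of mwh was 5.31, 4.17 and 3.65 in the same order, and that of f was 5.90, 4.62 and 4.64. The shorter rise of sha and mwh with both transgenes came with a higher level at 24 h and a lower one at 44 h than in control.

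**Figure D3:**
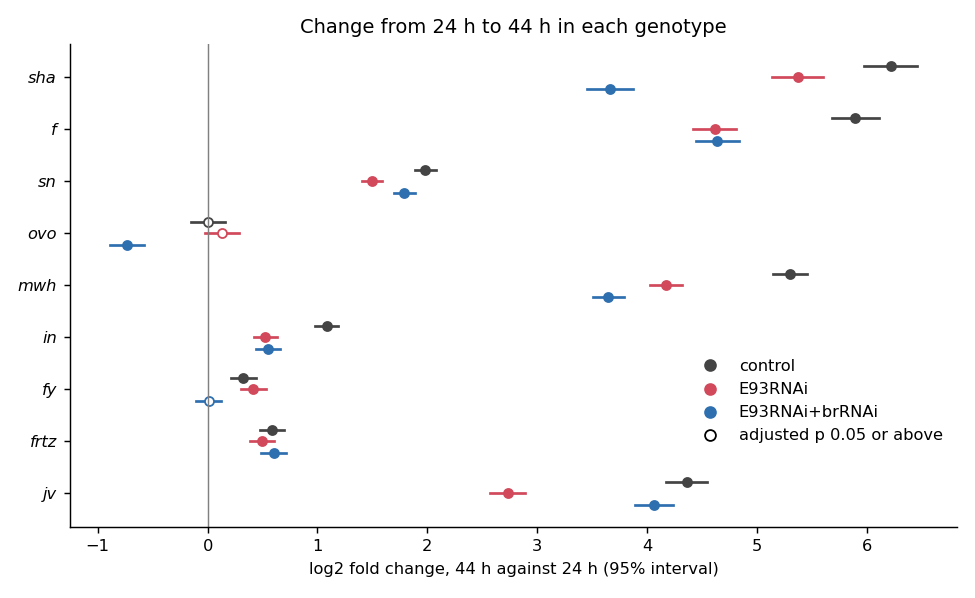
Change of the 9 genes from 24 h to 44 h in each genotype as log2 fold changes with 95% intervals, with open points where the adjusted p was 0.05 or above. The control points of sha, f, mwh and jv lie right of those of both RNAi genotypes, and ovo in E93RNAi+brRNAi lies at -0.74, left of 0.

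Levels per length, in the cRPKM values made by the authors (an RPKM that divides by a length of the gene), put the genes in a different order at the 2 times. In control at 24 h the order of the mean cRPKM was sn 144, ovo 56.7, in 33.8, fy 26.5, frtz 17.2, mwh 10.4, sha 7.64, f 4.09 and jv 1.48, and no neighbours in it overlapped. In control at 44 h the mean cRPKM was 492 for sha and 491 for sn, which overlapped, followed by mwh at 355, f at 211, in at 61.9 and ovo at 49.0, with fy, jv and frtz between 28.7 and 22.3. Between the times sha thus moved from the seventh place to the first and ovo from the second to the sixth. In E93RNAi at 44 h mean cRPKM values of sn (374) and sha (368) again overlapped, while with both transgenes sn (464) stood above sha (332) and f (230) above mwh (206).

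**Figure D4:**
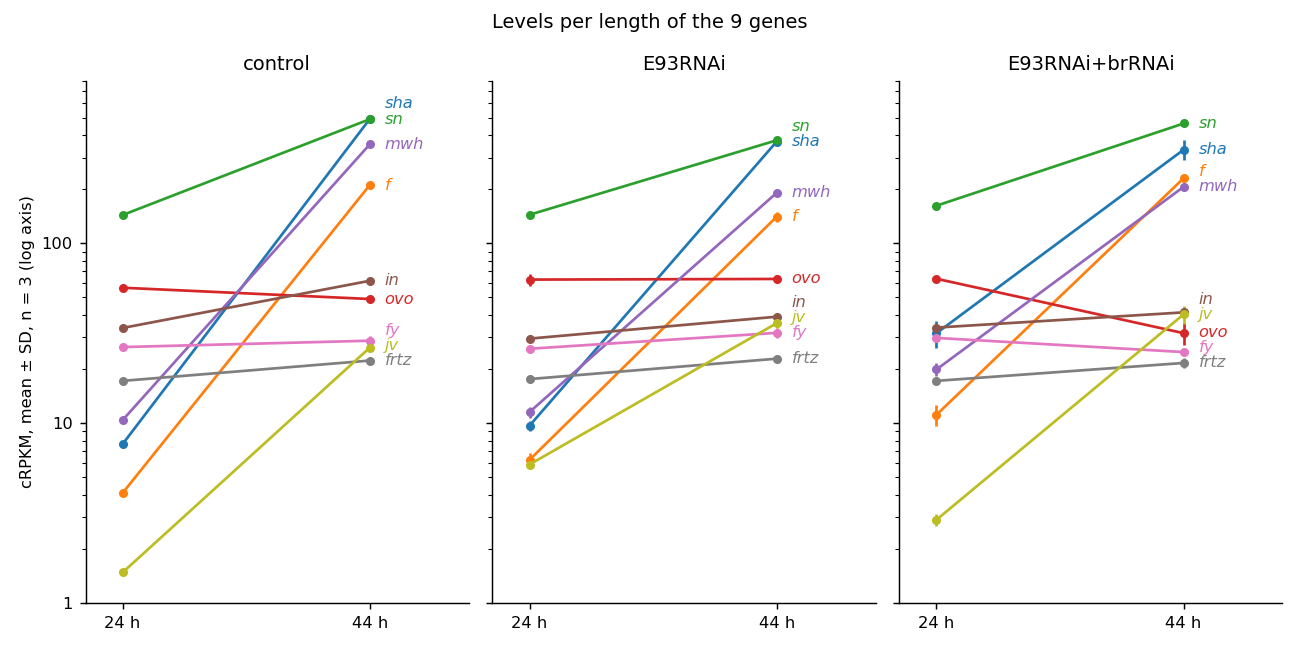
Mean cRPKM of the 9 genes at 24 h and 44 h in each genotype on a log axis, with SD bars (n = 3). Lines of sha, mwh, f and jv cross those of ovo, in, fy and frtz in part, and in control sha and sn end together at 492 and 491 cRPKM.

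Across the 18 libraries the log2 levels of sha, f, sn and mwh ran together, with Pearson r between 0.972 and 0.992. They were not alone in this, since r with these genes was 0.954 to 0.983 for frtz and 0.925 to 0.954 for jv. In contrast, r of ovo with the other 8 genes was between -0.457 and 0.042. These are descriptions over libraries that share 6 groups and are dominated by the difference between the times. By the same measure, the genes most alike to sha were CG9095, Sb and Cpr73D (r = 0.998, 0.998 and 0.997), to f dsx-c73A, tpr and CG8420 (0.998 each), and to mwh Tsp, mas and rt (0.999 each). Stubble, the product of Sb, is a transmembrane serine protease. For sn they were by, CG6040 and CG1440 (0.999, 0.998 and 0.998), and for jv CG8249, Cad88C and Dyro (0.996, 0.993 and 0.992). The levels most like ovo were those of robo2 (0.972), a receptor of the Slit signal, Asator (0.951) and CG34376 (0.922). The 24 h means of robo2 were 214 CPM in control, 271 CPM in E93RNAi and 269 CPM in E93RNAi+brRNAi, its 44 h means 241, 290 and 157 CPM, and so it had its highest and lowest group at 44 h where ovo had. For in, fy and frtz the nearest genes were CG5758 (0.986), CaBP1 (0.949) and Sesn (0.987).

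Genes that control Shavenbaby or are its known targets in the embryonic epidermis were counted as a list of 14, of which 12 were matched and tested. In control 11 rose and 0 fell between 24 h and 44 h (91.7% and 0.0%, beside 37.1% and 38.1% of all tested genes). Their median log2 change was 4.31, beside -0.01 over all genes. At 24 h, 8 were higher and 0 lower in E93RNAi (66.7% and 0.0%, beside 21.7% and 22.3%), with a median of 0.61 beside 0.00. In E93RNAi+brRNAi 9 were higher and 0 lower (75.0% and 0.0%, beside 14.7% and 15.8%), with a median of 1.22 beside 0.00. The zona pellucida domain gene mey was at 111 CPM in control, 227 CPM in E93RNAi (log2 fold change 1.03) and 489 CPM in E93RNAi+brRNAi (2.14), and Ubr3, a ubiquitin ligase gene, was at 262 CPM in E93RNAi against 186 CPM in control (0.49). The level of m, another zona pellucida domain gene, was 163 CPM in E93RNAi+brRNAi against 15.4 CPM in control (3.40), and in E93RNAi it was 17.95 CPM (0.22, adjusted p = 0.264). At 44 h 2 were higher and 5 lower in E93RNAi (16.7% and 41.7%, beside 20.6% and 18.9%), with a median of -0.58 beside 0.01. There neo was at 3514 CPM against 7127 CPM in control (log2 fold change -1.02). With both transgenes 4 were higher and 8 lower than control at 44 h (33.3% and 66.7%, beside 22.99% and 22.6%). The median there was -0.31, beside -0.01. The 3 genes with the smallest adjusted p, the only ones named here, were all among the 4 higher and not the 8 lower. They were dyl, at 3748 against 761 CPM (2.30), zye, at 19.2 against 0.647 CPM (4.86), and y, a pigment gene, at 63.7 against 0.707 CPM (6.48).

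The change of the E93RNAi difference between the times was below 0 for 9 of these 12 genes and above 0 for 0. These are 75.0% and 0.0%, beside 18.02% and 19.9% of all tested genes. Among the 9 were mey (-1.67), nyo (-1.60) and neo (-1.17). Against E93RNAi, wings with both transgenes had 8 higher and 2 lower at 24 h (66.7% and 16.7%, beside 20.2% and 21.1%). At 44 h they had 9 higher and 2 lower (75.0% and 16.7%, beside 24.9% and 23.9%). The change of that difference was above 0 for 2 and below 0 for 3, including zye (6.17) and m (-2.40). As shares these are 16.7% and 25.0%, near the 17.5% and 16.03% of all tested genes. The list rose in E93RNAi for 8 genes and fell for 1 (66.7% and 8.3%, beside 38.1% and 36.4%). It rose in E93RNAi+brRNAi for 9 and fell for 1 (75.0% and 8.3%, beside 37.8% and 38.00%).

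A list of 44 other genes of the hair and bristle cytoskeleton had 43 matched and tested. In control 22 rose and 9 fell between the times (51.2% and 20.9%, beside 37.1% and 38.1% of all tested genes), with a median log2 change of 0.16 beside 1.98 for the 9 genes. The gene cher, which encodes the filamin that cross-links actin, rose from 122 CPM to 2318 CPM (4.25). Mob2 and Rac2, a partner of the Tricornered kinase and a Rac GTPase, rose by 2.01 and 1.52. Over time in E93RNAi 20 were higher and 10 lower (46.5% and 23.3%, beside 38.1% and 36.4%). In E93RNAi+brRNAi 23 were higher and 13 lower (53.5% and 30.2%, beside 37.8% and 38.00%). In E93RNAi against control, 11 were higher and 7 lower at 24 h (median 0.04), which is 25.6% and 16.3% of the list and near the 21.7% and 22.3% of all tested genes. There chic, the profilin, was at 676 against 882 CPM (-0.38) and tsr, the cofilin, at 645 against 954 CPM (-0.56). Among the higher, DAAM was at 37.1 against 28.6 CPM (0.38). At 44 h 2 were higher and 16 lower (4.7% and 37.2%, beside 20.6% and 18.9% of all tested genes, median -0.06), and the actin gene Act5C was at 3794 against 5490 CPM (-0.53) while Act42A was at 1909 against 1319 CPM (0.53).

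With both transgenes, 7 of the 43 were higher and 4 lower than control at 24 h (16.3% and 9.3%, beside 14.7% and 15.8% of all tested genes), where cher was at 230 against 122 CPM (0.92). At 44 h 12 were higher and 17 lower (27.9% and 39.5%, beside 22.99% and 22.6%). The 3 genes with the smallest adjusted p there were all among the higher, including the formin gene Fhos at 279 against 135 CPM (1.04). Against E93RNAi they were 11 higher and 9 lower at 24 h (25.6% and 20.9%, near the 20.2% and 21.1% of all tested genes), and 18 higher and 5 lower at 44 h (41.9% and 11.6%, beside 24.9% and 23.9%). Among those higher at 44 h, Rab23, a GTPase that acts in hair formation, was at 518 against 286 CPM (0.86) and Act5C at 6424 against 3794 CPM (0.76). The change of the E93RNAi difference between the times was above 0 for 5 and below 0 for 17 (11.6% and 39.5%, beside 19.9% and 18.02%), and that of the difference between the RNAi groups above 0 for 12 and below 0 for 3 (27.9% and 7.0%, beside 17.5% and 16.03%).

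Of the 6 core planar polarity genes, all tested, 2 were higher and 0 lower in E93RNAi than in control at 24 h. These were stan (0.36) and Vang (0.16), where 21.7% of all tested genes were higher and 22.3% lower. At 44 h 1 of the 6 was higher and 3 lower, including Vang (-0.28), where 20.6% of all tested genes were higher and 18.9% lower. The medians of the 6 were 0.01 and -0.13, beside 0.00 and 0.01 over all tested genes. With both transgenes at 24 h, 0 of the 6 passed in edgeR against control or against E93RNAi, and 0 had an unadjusted p under 0.05. Of all tested genes 14.7% were higher and 15.8% lower than control there, and 20.2% higher and 21.1% lower than E93RNAi. At 44 h 2 of the 6 were higher and 3 lower than control, beside 22.99% and 22.6% of all tested genes. Vang (-0.46) and stan (-0.47) were among the lower. Against E93RNAi at 44 h 1 of the 6 was higher and 2 lower, beside 24.9% and 23.9% of all tested genes. Between the times 3 rose and 3 fell in control, and 1 rose and 2 fell in each RNAi genotype, where dgo rose in all 3 (0.72, 0.57 and 0.77). Over all tested genes 37.1% to 38.1% rose and 36.4% to 38.1% fell in a genotype, so counts of this size among 6 genes are near the background. The change of the E93RNAi difference was above 0 for 1 and below 0 for 2 (16.7% and 33.3%, beside 19.9% and 18.02%). That between the RNAi groups was above 0 for 1 and below 0 for 0 (16.7% and 0.0%, beside 17.5% and 16.03%).

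**Figure D5:**
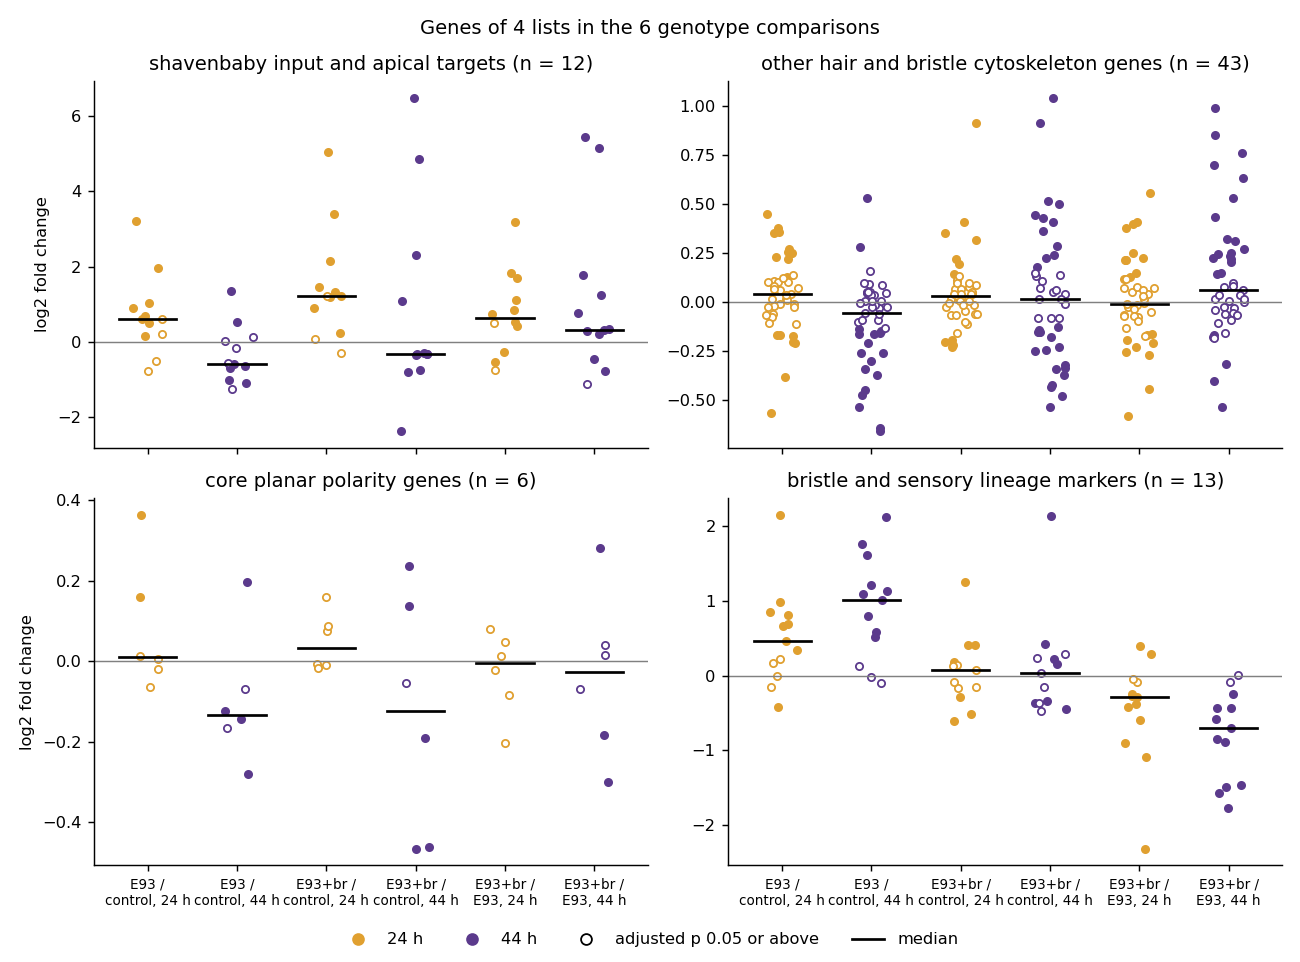
Log2 fold changes of the tested genes of 3 lists around the 9 genes and of bristle and sensory lineage markers in the 6 genotype comparisons, which share libraries. Points are genes, open where the adjusted p was 0.05 or above, and lines are medians. In the list of shavenbaby input and apical targets the median lies at 0.61 and 1.22 at 24 h against control and at -0.58 and -0.31 at 44 h.

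Markers of other cells moved with some of these differences. In bulk RNA, fewer cells of a type and less RNA per cell cannot be told apart. Of 13 markers of the bristle and sensory lineage, 8 were higher and 1 lower in E93RNAi than in control at 24 h. These are 61.5% and 7.7%, beside 21.7% and 22.3% of all tested genes. At 44 h 10 were higher and 0 lower (76.9% and 0.0%, beside 20.6% and 18.9%). The level of sens, which marks sensory precursors, was 29.8 against 6.69 CPM at 24 h and 6.86 against 1.54 CPM at 44 h. The summed level of the 13 was 475 to 504 CPM in control, 661 to 742 CPM in E93RNAi and 552 to 576 CPM in E93RNAi+brRNAi at 24 h. At 44 h it was 585 to 606, 754 to 803 and 564 to 628 CPM, and none of the 13 was at 0 in a group. In E93RNAi+brRNAi 4 were higher and 3 lower than control at each time (30.8% and 23.1%). Over all tested genes these shares were 14.7% and 15.8% at 24 h and 22.99% and 22.6% at 44 h. In this genotype sens averaged 5.96 CPM at the earlier time and 6.88 CPM at the later, the latter above control (2.14 on the log2 scale, adjusted p = 2.97e-07). The higher jv of E93RNAi at both times and of E93RNAi+brRNAi at 24 h came with a summed marker level above that of control. At 44 h the higher jv of E93RNAi+brRNAi came with a summed level that overlapped control. In that genotype sens was above control at 44 h but not at 24 h (adjusted p = 0.541). Of 10 matched muscle markers, 8 were higher and 1 lower in E93RNAi than in control at 24 h, and 10 were lower at 44 h, the same order of signs as for sha and f. Their summed level was 195 to 216 CPM in control, 293 to 319 CPM in E93RNAi and 157 to 184 CPM in E93RNAi+brRNAi at 24 h, and 815 to 948, 405 to 517 and 725 to 874 CPM at 44 h, and none was at 0 in a group. With both transgenes at 24 h, where sha was 4.18-fold and f 2.75-fold over control, 1 muscle marker was higher and 2 lower. At 44 h 4 were higher and 1 lower with both transgenes than in control, and all 10 were higher than in E93RNAi, where f, sn, mwh, in and jv were higher too. The part of these cells in the differences of the 9 genes was not tested.

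The genes lie on chromosomes X (f, sn and ovo), 2L (fy and frtz), 2R (sha) and 3L (mwh, in and jv) in the Ensembl BDGP6 annotation. There sha (FBgn0003382) spans 11324314 to 11336463 of 2R, mwh (FBgn0264272) 1200786 to 1232700 of 3L and ovo (FBgn0003028) 5048273 to 5070929 of X, all on the plus strand, and jv (FBgn0263973) 6563197 to 6589479 of 3L on the minus strand. Whether counting used the strand is not given in the sources used here, so reads from exons shared with genes of the opposite strand cannot be taken as separated. Such exons covered 119 bases of sn (3.39% of its exons, with sws), 164 of frtz (4.55%, with mRpL48) and 117 of fy (6.93%, with CG31898), and 47 and 25 bases of f and ovo, while sha, mwh, in and jv shared no exon with another annotated gene. On its own strand frtz also shares 268 bases (7.44% of its exons) with an annotated copy of the transposable element mdg3, whose reads strand would not separate.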

How the data were processed

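For each of 18 libraries the authors deposited raw read counts per gene and a cRPKM. By the deposited values this is an RPKM: count over library total and over a gene length, which for the 9 genes came within 1 base of the length of an annotated transcript minus 49 bases. Reads were 51 bases long, single-end, from a kit that keeps the strand, per the labels' protocols. The genome build was dm6, per the submitters' processing notes. Aligner and counter: not given in the sources used here. Symbols and coordinates come from the Ensembl release of BDGP6, which matched 13511 of 13731 identifiers. FBgn0000210, which it does not hold, was taken as br by its implied length of 8173 bases, next to a br transcript of 8223 bases less that offset.

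The counts were fitted in edgeR (version 4.0.16, under R 4.3.3) with TMM factors, genes kept by filterByExpr, 1 mean for each of 6 groups, and the quasi-likelihood F test with Benjamini-Hochberg adjustment over all 9672 genes tested at 0.05. The common biological coefficient of variation was 5.99%. All adjusted p-values come from this fit, which was tested on simulated counts. Log2 fold changes are given ± SE, and list medians use the tested genes. Pearson r used log2 CPM with a prior count of 2, over tested genes of at least 5 CPM on average.

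The 9 genes, the 3 pathway lists and the 7 marker lists were chosen with earlier results of these data known, so no p-value is adjusted over a list. Of each pathway list, up to 3 genes per comparison with the smallest adjusted p could be named, and of each of the 9 genes the 3 most alike. List members zip, tal, tyn, ap, wupA and btl were not matched. Alternatives were RLE factors, library totals alone, no filter, a filter at 1 CPM in 3 libraries, the compared groups alone, DESeq2 1.42.0, the replicate number as a block, and leaving out each library. No libraries were duplicates.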

Additional observations from a re-analysis of the deposited data

Results flagged for a closer look

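Genotype differences that changed between 24 h and 44 h, by the interaction contrast of the edgeR fit (44 h minus 24 h), are listed here with their log2 values and SE, and no explanation was tested.

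For E93RNAi against control, the change was -1.63 ± 0.12 for jv, -1.28 ± 0.12 for f, -1.13 ± 0.09 for mwh, -0.85 ± 0.13 for sha, -0.56 ± 0.07 for in and -0.48 ± 0.06 for sn. The adjusted p-values ran from 1.11e-09 (jv) to 4.92e-05 (sha). All 6 kept their sign and their call under every alternative run.

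For E93RNAi+brRNAi against E93RNAi, the change was -1.71 ± 0.13 for sha, -0.87 ± 0.10 for ovo, -0.53 ± 0.09 for mwh and -0.41 ± 0.08 for fy. It was 1.33 ± 0.11 for jv and 0.29 ± 0.06 for sn. The adjusted p-values ran from 3.87e-09 (sha) to 0.00112 (sn). For sn the call was lost with library totals alone (0.14), and the other 5 kept theirs under every alternative run.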

How the results depend on the processing

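The number of the 9 genes called, and of all genes called, both directions together, stayed within 1.5 times its value under each alternative, but counts by direction did not. Under scaling by library totals alone, genes higher in E93RNAi than in control at 44 h went from 1996 to 3263. In E93RNAi+brRNAi against E93RNAi at 44 h they went from 2408 to 1516 higher and from 2309 to 4406 lower, and for the change of that difference from 1550 to 3022 lower. Of the 9 genes, those higher in the former went from 5 to 3. Leaving out 1 library gave 3 to 5 of the 9 genes called in E93RNAi against control at 24 h, against 4 with all libraries, and counts within 1 of the full count in the other comparisons. Library totals alone moved the median of all genes by -0.22 (control), -0.27 (E93RNAi+brRNAi) and -0.10 (E93RNAi) over time. At 44 h the shift was 0.12 for E93RNAi against control and -0.20 for E93RNAi+brRNAi against E93RNAi, and for the changes of those differences 0.11 and -0.18.

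With library totals alone, values near 0 changed sign: ovo over time in control (-0.21, which passed the threshold), fy over time in E93RNAi+brRNAi (-0.26, which passed), sha in E93RNAi+brRNAi against E93RNAi at 44 h (-0.15), f and in for the change of that difference (-0.12 for each), and sn in E93RNAi against control at 24 h (0.0053). So did frtz in E93RNAi against control at 44 h (0.035) and its change (0.0022), in E93RNAi+brRNAi against E93RNAi at 24 h (-0.032) and 44 h (-0.080) and its change (-0.048), and against control at 44 h (-0.045). Between the RNAi groups at 24 h frtz also turned with RLE factors (-0.014), DESeq2 (-0.014) and no filter (-0.019). With no filter sn turned in E93RNAi against control at 24 h (0.014) and in E93RNAi+brRNAi against control at 44 h (0.00094), and the latter also in a fit of those groups alone (0.015), as did fy over time in E93RNAi+brRNAi (-0.010). Under library totals fy passed in E93RNAi against control at 44 h (0.15) and missed in control over time (0.12).

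Values that changed sign when 1 library was left out are given here with their range over those fits. They were f (-0.041 to 0.14) and in (-0.015 to 0.079) for the change of E93RNAi+brRNAi against E93RNAi, and in that comparison frtz (-0.035 to 0.055) and ovo (-0.0032 to 0.12) at 24 h and sha (-0.018 to 0.14) at 44 h. Against control they were sn (-0.056 to 0.016) and frtz (-0.041 to 0.049) in E93RNAi at 24 h, fy there at 44 h (-0.015 to 0.063), and in E93RNAi+brRNAi frtz at 24 h (-0.016 to 0.052) and at 44 h (-0.0047 to 0.061) and sn at 44 h (-0.011 to 0.025). Over time they were ovo in control (-0.033 to 0.027) and fy in E93RNAi+brRNAi (-0.011 to 0.042).

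Libraries that share a replicate number did not deviate together on average (median r -0.012 over 45 pairs, from -0.578 to 0.516, beside 0.015 for other pairs). Whether libraries of the same number were prepared together is not in the labels, and a median near 0 cannot settle it. The replicate block gave 4082 genes called in E93RNAi against control at 24 h in place of 4249 and 4278 in place of 4406 in E93RNAi+brRNAi against control at 44 h. Among the 9 genes it ended the call of f in the latter (0.20) and changed no other. The planned search for Ovo motifs in promoters was not run. With 3 libraries in a group, the SE of a member's difference between groups was 0.04 to 0.12 on the log2 scale. The parts of depth and of the number of libraries in this precision were not tested.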

Other observations

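The other marker lists gave these summed levels, with the lowest and highest library of each group in CPM. Trachea markers (2 of 3 matched) were at 328 to 342 in control, 251 to 284 in E93RNAi and 285 to 291 in E93RNAi+brRNAi at 24 h, and at 410 to 420, 452 to 477 and 1267 to 1561 at 44 h, where Gasp, a chitin-binding protein of tracheal and other cuticle, was at a mean of 1261 CPM in E93RNAi+brRNAi against 306 CPM in control. Hemocyte markers (6 matched) were at 38.4 to 47.0 in all 24 h groups apart from E93RNAi, at 37.8 to 43.2, and at 83.3 to 92.5, 58.3 to 60.1 and 66.7 to 70.9 at 44 h in the same order. Neuron markers (5) were at 42.7 to 59.4, 30.2 to 38.9 and 27.2 to 31.9 at 24 h, and at 97.5 to 110.5, 97.9 to 108.3 and 78.2 to 99.6 at 44 h. Fat body markers (5) were at 442 to 509, 549 to 580 and 431 to 454 at 24 h, and at 286 to 374, 240 to 272 and 334 to 381 at 44 h, and Yp1 was at 0 in all control libraries. Wing epithelium markers (9 of 10) were at 2653 to 2802, 2835 to 3230 and 2733 to 2891 at 24 h, and at 2064 to 2171, 2097 to 2118 and 1731 to 1930 at 44 h.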
